A study of Homo sapiens with 44 samples.

Results

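The genes described here are 9 small leucine-rich proteoglycans (SLRPs), DCN (decorin), BGN (biglycan), ASPN (asporin), LUM (lumican), FMOD (fibromodulin), PRELP, OMD (osteomodulin), OGN (osteoglycin) and PODN (podocan). They were chosen by symbol from the 40663 gene symbols of a bulk RNA sequencing count table. Their values were not used for this, but earlier results of these data were known at the time. All 9 were listed, and 6 of them (DCN, LUM, BGN, ASPN, FMOD and PODN) passed a filter on low counts that left 9513 genes for testing. The study recorded how an intestinal stromal cell line responds to cytokines linked to Crohn's disease. Ccd-18Co is a fibroblast line from human colon, used at up to passage 20, and every library comes from this line alone. After 72 h without serum, cells were left without cytokine (unstimulated) or received 1 of 10 cytokines for 24 h, still without serum. The stimulated groups, named as in the labels, were IL1B (interleukin 1 beta) at 0.1 ng/ml (the labelled dose, although a figure legend of the study gives a lower one), and IL6, IL13, IL17A, IL22 (interleukins), IFNA and IFNG (interferons alpha and gamma), TGFB1 (transforming growth factor beta 1), TNF (tumor necrosis factor) and OSM (oncostatin M) at 10 ng/ml each. Each of the 11 groups had 4 replicate libraries, 44 in all. The labels do not say whether replicates were separate cultures, so the p-values measure the spread between these libraries, which may be technical. The methods name 2 kits for RNA extraction without saying which libraries each was used for.

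SLRPs are secreted proteins built around a curved stack of leucine-rich repeats, and most carry glycosaminoglycan chains. They bind collagen fibrils and set fibril spacing and diameter, and several also bind growth factors such as TGF-β. Fibroblasts are their main source in connective tissue, including the submucosa of the gut. Decorin and biglycan carry chondroitin or dermatan sulfate chains, and their close relative asporin has an aspartate-rich stretch in place of such a chain. Lumican, fibromodulin and osteomodulin belong to the keratan sulfate branch with PRELP, which binds heparan sulfate. Osteoglycin and podocan belong to separate, smaller branches.

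Depth and cell identity were checked first. Libraries held between 742173 and 2213424 counts (median 1480882). Levels are given as CPM, the count per 1000000 counts of the normalized library, and a floor of 3 counts came to 1.39 to 3.85 CPM, which takes in counting error alone. No 2 libraries held identical values, and all 66 pairs of replicates differed by more than sampling noise. All 8 fibroblast markers passed the filter, whereas 1 of 6 epithelial markers (VIL1), 1 of 6 leukocyte markers (CD68), 0 of 3 endothelial markers and 3 of 4 smooth muscle markers (ACTA2, MYH11 and CNN1) did. The summed level was 4609 to 33900 CPM over the fibroblast markers and at most 28.4 CPM over the epithelial, 73.8 CPM over the leukocyte and 2.65 CPM over the endothelial markers. Over the smooth muscle markers it was 79.0 to 1347 CPM. In bulk RNA, fewer cells of a type and less RNA per cell cannot be told apart.

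The SLRP genes sit in clusters, given here by GENCODE release 44 on GRCh38. On chromosome 12, LUM (91102629 to 91111494) and DCN (91140484 to 91183217) lie on the minus strand next to KERA and EPYC, in a stretch of 219.5 kb. On chromosome 9, OGN (92383268 to 92404696), OMD (92412380 to 92424471) and ASPN (92456205 to 92482506) lie on the minus strand with ECM2 over 153.4 kb, within the body of CENPP, a centromere protein gene on the plus strand, but without overlap of their exons with its exons. On chromosome 1, FMOD (203340628 to 203351758, minus strand) and PRELP (203475806 to 203491352, plus strand) neighbour OPTC over 168.3 kb, and PODN (53062052 to 53085501, plus strand) lies elsewhere on the same chromosome. BGN is on chromosome X (153494980 to 153509546, plus strand). Exons of PODN overlap those of 2 genes on the minus strand, ENSG00000232993 and HIGD1AP11, and because the use of strand in counting is not stated, the PODN values are uncertain. The canonical transcripts of ASPN, LUM and DCN had a GC content of 34.5%, 34.9% and 38.2%, and those of BGN and PODN 60.9% and 60.7%.

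Promoters of 2 members are shown because ASPN had the widest range of group means among the 6 tested members (82.4-fold) and BGN, its relative, has the transcript of highest GC content. The sequences are the 250 bases before the start of the gene from RefSeq on GRCh38.p14, in the direction of transcription, for ASPN at chr9:92482507-92482756 (minus strand) and for BGN at chrX:153494730-153494979 (plus strand). Capitals mark matches, on either strand, to the TATA box TATAAA, the AP-1 motif TGANTCA, the STAT motif TTCNNNGAA, the interferon response core GAAANNGAA, the SMAD half-site CAGAC or the GC box GGGCGG.
ASPN: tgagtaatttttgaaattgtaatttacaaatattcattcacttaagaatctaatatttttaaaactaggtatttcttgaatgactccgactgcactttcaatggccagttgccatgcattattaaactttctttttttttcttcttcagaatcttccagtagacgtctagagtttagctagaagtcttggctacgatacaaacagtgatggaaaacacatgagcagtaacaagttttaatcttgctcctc
BGN: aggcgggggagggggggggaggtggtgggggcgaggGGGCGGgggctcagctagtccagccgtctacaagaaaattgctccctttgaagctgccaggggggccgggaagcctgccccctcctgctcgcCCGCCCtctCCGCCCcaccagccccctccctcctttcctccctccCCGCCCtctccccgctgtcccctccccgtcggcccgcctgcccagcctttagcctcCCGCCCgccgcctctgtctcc
The ASPN window held no match to any of the 6 motifs, and its GC content was 32.4%, lower than in all but 2.92% of the 35116 windows of this length. The BGN window held 5 GC boxes and had a GC content of 74.0%. Over all windows, the share with a match was 10.7% for TATAAA, 6.57% for TGANTCA, 6.57% for TTCNNNGAA, 6.88% for GAAANNGAA, 38.0% for CAGAC and 42.6% for GGGCGG. Windows were at hand for 6 of the 9 members (ASPN, BGN, OGN, FMOD, PRELP and PODN). Of these, FMOD held a TATAAA, a TTCNNNGAA and a CAGAC match, OGN and PRELP held CAGAC, OGN held TATAAA, and FMOD and PODN held GC boxes. A match is a run of letters and was not tested as a binding site.

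Levels of the members differed by more than 4 orders of magnitude. Per kilobase of canonical transcript, the mean over all libraries was 2320 CPM for DCN and 1338 CPM for LUM, then 40.8 CPM for ASPN, 3.12 CPM for BGN, 2.66 CPM for PODN and 1.58 CPM for FMOD. The other members were lower still, with 0.165 CPM per kilobase for OMD, 0.112 for OGN and 0.0824 for PRELP. Without regard to length, DCN had the largest mean share of counts of all symbols over the 44 libraries, 1.59%, and LUM was in 24th place with 0.355%. In unstimulated cells DCN made up 60.9% of the summed SLRP level per kilobase, LUM 37.5% and ASPN 1.45%. The summed level was highest with OSM at 5142 ± 521 CPM per kilobase (SD, n = 4), against 3760 ± 256 in unstimulated cells. It was lowest with TGFB1 at 2805 ± 180, with IFNG close by at 2868 ± 390. Transcripts of low GC content were also more abundant among all genes tested, with a median of 9.66 CPM per kilobase in the third of lowest GC content and 4.54 in the third of highest. The part of GC content in the order of the members was not tested.

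**Figure D1:**
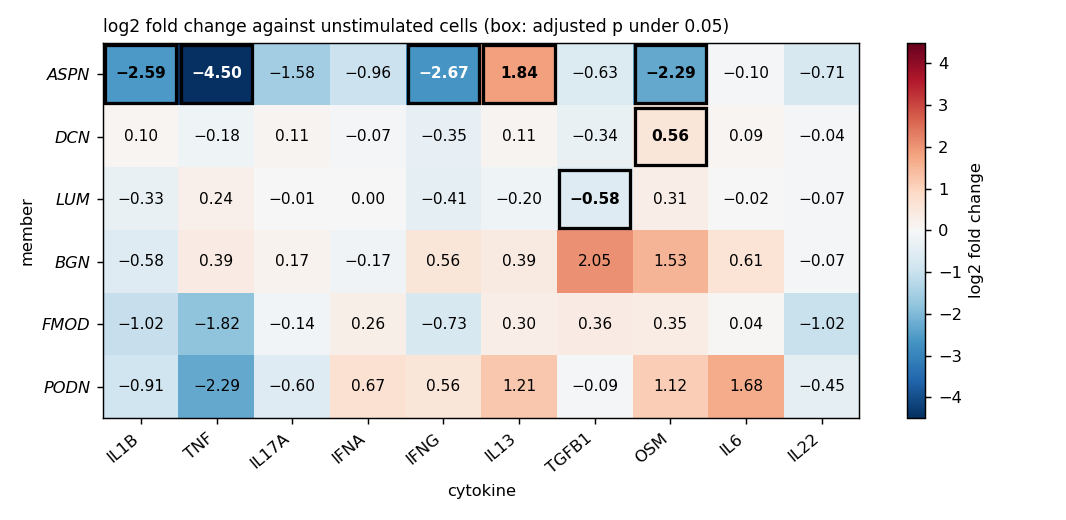
Fitted log2 fold changes of the 6 tested SLRP genes (rows) for each of the 10 cytokines (columns) against unstimulated cells, 4 libraries per group, with boxes and bold type where the adjusted p of edgeR's quasi-likelihood test was under 0.05. ASPN has 5 of the 7 boxed values, from -4.50 with TNF to 1.84 with IL13, and DCN and LUM have 1 each.

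The question each comparison addressed was which cytokine changes the SLRP transcripts of these cells. ASPN was the member that changed most often. It fell with TNF, IFNG, IL1B and OSM and rose with IL13, while DCN rose with OSM and LUM fell with TGFB1. BGN, FMOD and PODN passed edgeR's test with none of the cytokines, although DESeq2 called BGN with TGFB1 and PODN with TNF. The count of members called is given below beside the share of all genes tested that was called in the same comparison. Counts of 0, 1 or 2 among 6 members are too few to set the members apart from those shares. Ranges without overlap were found for a share of all genes tested too. Against unstimulated cells this share was 14.1% with TNF, 12.8% with IL1B, 11.9% with IFNG and 10.4% with OSM. With IL13 it was 9.82%, with TGFB1 9.28% and with IL17A 7.06%. Between IL13 and TGFB1 it was 14.6%, between OSM and IL6 10.1% and between IL1B and TNF 7.99%.

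ASPN, which binds collagen and TGF-β, was measured at 165, 204, 71.1 and 102 CPM in unstimulated replicates 1 to 4. With TNF it was at 16.9, 0, 4.50 and 2.14 CPM, with every library below every unstimulated library. This was 22.6-fold lower (log2 fold change -4.50, standard error 0.57, edgeR adjusted p = 8.18e-08), and without TNF replicate 1, the highest of the 4, the log2 fold change was -5.82. Of the 6 members 1, ASPN, was called with TNF, where 11.5% of all genes tested were called. The TNF group is at the edge of detection, with 34 ASPN counts in 4 libraries against 867 in the unstimulated libraries.

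With IL1B the 4 libraries held 28.3, 32.5, 11.4 and 17.5 CPM of ASPN, again all below the unstimulated range. The fit gave a 6.01-fold lower level (log2 fold change -2.59, standard error 0.47, edgeR adjusted p = 0.000121), and 1 of 6 members and 7.38% of genes were called in this comparison. With IFNG the values were 30.9, 38.2, 13.0 and 3.56 CPM, a 6.36-fold lower level (-2.67, standard error 0.49, edgeR adjusted p = 9.89e-05). The IFNG libraries did not overlap the unstimulated ones, and 1 of 6 members and 10.6% of genes were called. With OSM, ASPN was at 31.7, 40.3, 18.7 and 19.0 CPM, a 4.88-fold lower level (-2.29, standard error 0.47, edgeR adjusted p = 0.0012) where 3.96% of genes were called. ASPN was thus below the range of the same 4 unstimulated libraries in all 16 libraries of these 4 cytokines. The direction and the call held in each alternative computed for these 4 comparisons.

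IL13, a cytokine of type 2 immunity, was the stimulus with which ASPN rose. The IL13 libraries held 571, 697, 349 and 327 CPM, all above the unstimulated range, and the mean was 486 ± 179 CPM (SD, n = 4) against 135 ± 60.2. This was 3.58-fold higher (log2 fold change 1.84, standard error 0.43, edgeR adjusted p = 0.00643), and it was the only SLRP called with IL13, where 3.93% of genes were called. ASPN made up 5.09% of the summed SLRP level per kilobase with IL13 and 0.0625% with TNF. The summed level of the 8 fibroblast markers, which include the abundant COL1A1, was 20174 to 33900 CPM with IL13 and 11876 to 21702 CPM in unstimulated cells. It was 4609 to 9685 CPM with TNF, 6604 to 10793 CPM with IL1B, 5125 to 18937 CPM with IFNG and 11898 to 15564 CPM with OSM. The TNF and IL1B sums thus lay below the unstimulated range, and the IL13, IFNG and OSM sums overlapped it. The summed level of the 4 smooth muscle markers was 257 to 893 CPM in unstimulated cells, 791 to 1347 CPM with IL13, 95.9 to 277 CPM with TNF, 88.2 to 168 CPM with IL1B, 79.0 to 245 CPM with IFNG and 362 to 611 CPM with OSM. The part of these markers in the ASPN result was not tested.

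In the remaining groups ASPN did not pass the test. With IL17A the libraries held 53.3, 47.6, 28.8 and 50.5 CPM, all below the unstimulated range, with a log2 fold change of -1.58 (standard error 0.45, edgeR adjusted p = 0.0598). This comparison passed without unstimulated replicate 3 (adjusted p = 0.0274), with only the 8 libraries compared (0.0154) and without the filter on low counts (4.77e-08). With IL17A 1.52% of all genes and 0 of 6 members were called with IL17A, 1 member having an unadjusted p under 0.05 and DESeq2 calling 0. With IFNA the values were 118, 94.8, 38.1 and 26.2 CPM (-0.96, standard error 0.43, edgeR adjusted p = 0.178), with 0 members called, 1 at an unadjusted p under 0.05, 0 called by DESeq2, and 9.85% of genes called. Without the filter on low counts ASPN passed with IFNA (adjusted p = 0.00158). TGFB1 gave 65.3 to 99.8 CPM (edgeR adjusted p = 0.469), IL22 65.4 to 116 CPM (0.591) and IL6 66.4 to 171 CPM (1), and all of these ranges overlapped the unstimulated one. Ordered by mean level, IL13 stood apart from the next group, unstimulated cells, without overlap, whereas each later neighbour in the order (IL6, TGFB1, IL22, IFNA, IL17A, OSM, IL1B, IFNG, TNF) overlapped the one before it.

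**Figure D2:**
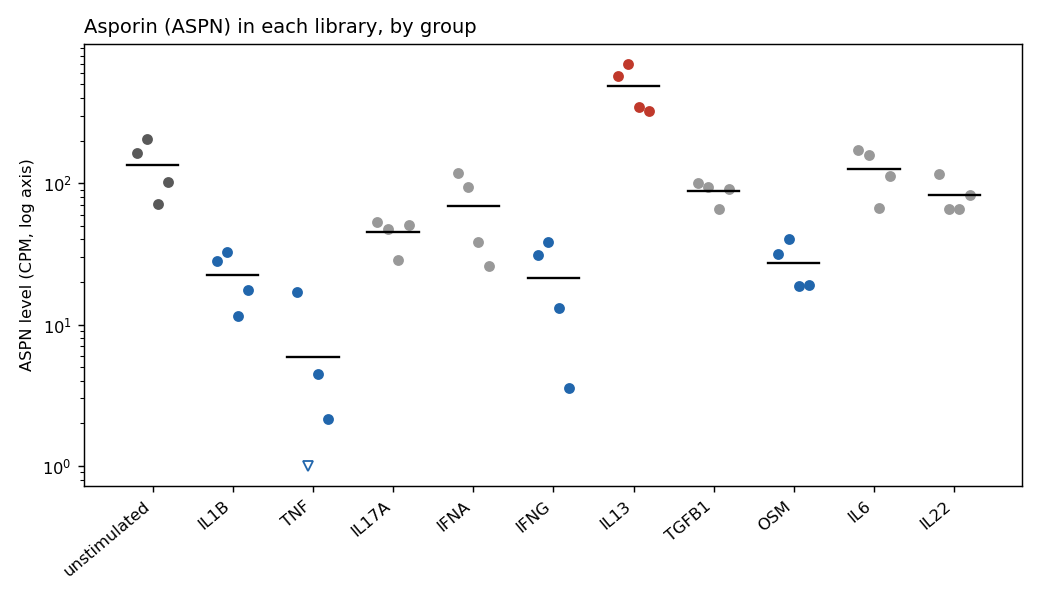
ASPN level in CPM on a log axis, 1 point per library (replicates 1 to 4 from left to right) and a line at the mean of each of the 11 groups; red and blue mark groups higher or lower than unstimulated at an adjusted p under 0.05, and the open triangle is TNF replicate 2, which had 0 counts and is drawn at the lower edge. IL13 lies at 327 to 697 CPM, and the IL1B, TNF, IFNG and OSM libraries lie below the lowest unstimulated library at 71.1 CPM.

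DCN, which had the largest mean share of counts over all libraries, was measured at 15796, 17491, 14052 and 15362 CPM in unstimulated replicates 1 to 4. With OSM, a cytokine of the IL-6 family, it was at 25899, 23925, 24186 and 18206 CPM. All 4 OSM libraries lay above the unstimulated range, and the fitted rise was 1.47-fold (log2 fold change 0.56, standard error 0.14, edgeR adjusted p = 0.00902). DCN and ASPN were the 2 members called with OSM, in opposite directions, where 3.96% of all genes tested were called. With only the 8 libraries of the 2 groups in the fit, the edgeR adjusted p of DCN was 0.101. The log2 fold change also lay below 1.5, the threshold the study set for its signatures. In the other groups the mean ranged from 12261 ± 1259 CPM (SD, n = 4) with IFNG to 16974 ± 989 CPM with IL17A. The IFNG libraries, at 10649 to 13691 CPM, lay below the unstimulated ones without passing the test (log2 fold change -0.35, standard error 0.14, edgeR adjusted p = 0.0857), and with TGFB1 the range of 10570 to 14117 CPM overlapped it (-0.34, adjusted p = 0.142). In the order of mean levels only OSM was separated from its neighbour.

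LUM was measured at 2918, 3881, 4343 and 3926 CPM in unstimulated replicates 1 to 4. With TGFB1 it was at 2551, 2089, 2439 and 3034 CPM, so that 1 TGFB1 library lay within the unstimulated range. The fitted fall was 1.49-fold (log2 fold change -0.58, standard error 0.15, edgeR adjusted p = 0.0116), and LUM was the only member called with TGFB1, where 5.69% of genes were called. The call did not hold throughout. The edgeR adjusted p was 0.057 without unstimulated replicate 3, 0.067 without TGFB1 replicate 2 and 0.181 with only the 8 libraries compared. With a correction for GC content it was 0.098 (log2 fold change -0.34). The size of the fall also lay below the study's threshold of 1.5 on the log2 scale.

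LUM did not pass edgeR's test with the other cytokines. The 4 OSM libraries (4525 to 4945 CPM) lay above the 4 unstimulated ones, with a log2 fold change of 0.31 (standard error 0.15, edgeR adjusted p = 0.287), and TNF gave 3895 to 4875 CPM (0.24, adjusted p = 0.343). Spearman's rho between GC content and log2 fold change was taken across the 9491 genes with a known GC content. It was 0.323 with IFNG, 0.322 with OSM, 0.239 with TNF and 0.229 with TGFB1. These values are a description, since genes are not independent replicates. Under the GC correction the LUM comparisons with OSM and TNF passed, with 0.65 (edgeR adjusted p = 0.000394) for OSM and 0.49 (0.00392) for TNF. With IFNG the LUM values were 2736, 3852, 2530 and 2233 CPM (-0.41, standard error 0.15, edgeR adjusted p = 0.0646). This comparison passed without IFNG replicate 2 (0.00512), without unstimulated replicate 1 (0.018) and by DESeq2 (0.048). It did not pass under the GC correction. With IL1B the range was 2788 to 3453 CPM (-0.33, adjusted p = 0.22). In the order of mean levels, from OSM at 4680 ± 199 CPM (SD, n = 4) to TGFB1 at 2528 ± 390, each group overlapped its neighbour.

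**Figure D3:**
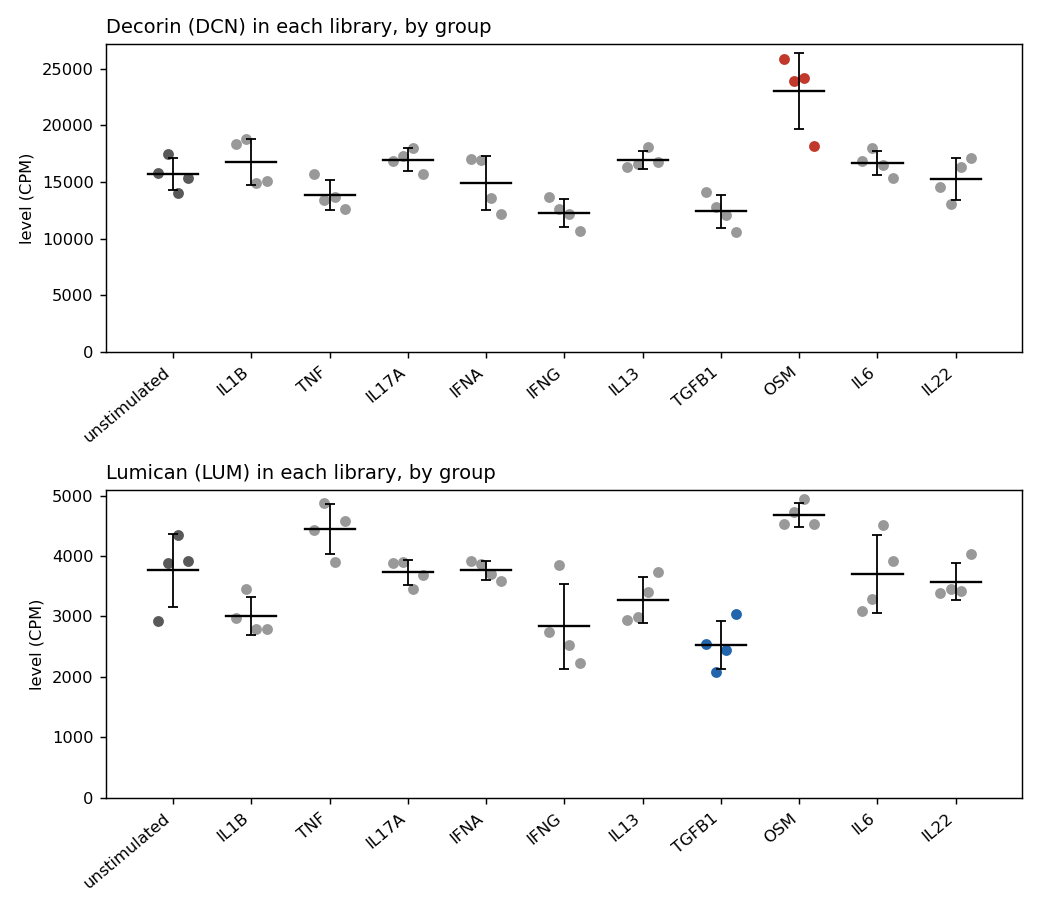
DCN (top) and LUM (bottom) level in CPM from 0, 1 point per library, with the mean and SD of the 4 replicates of each group; red and blue mark groups higher or lower than unstimulated at an adjusted p under 0.05. The OSM libraries hold 18206 to 25899 CPM of DCN, above the unstimulated 14052 to 17491, and the TGFB1 libraries hold 2089 to 3034 CPM of LUM, of which 1 lies within the unstimulated 2918 to 4343.

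LUM and DCN are neighbouring genes, and the ratio of their counts within a library does not depend on library size. LUM had 0.243 ± 0.0528 counts per DCN count (SD, n = 4) in unstimulated cells, with values of 0.185 to 0.309. The ratio was highest with TNF, at 0.324 ± 0.0468, and lowest with IL1B, at 0.180 ± 0.0115. The TNF range of 0.282 to 0.365 lay above the IL1B range of 0.162 to 0.187, and both overlapped the unstimulated range. No test was made of the ratio.

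**Figure D4:**
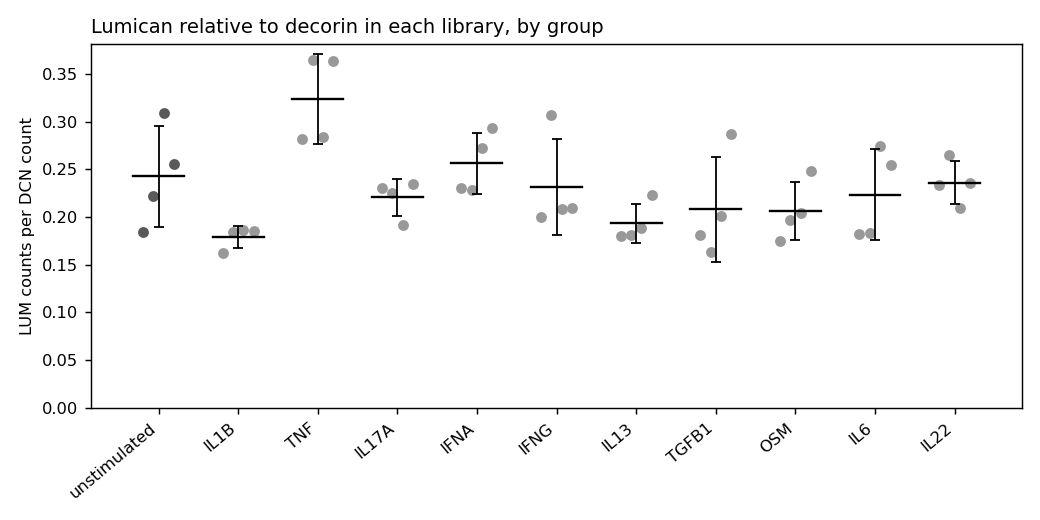
LUM counts per DCN count in each library, 1 point per library, with the mean and SD of the 4 replicates of each group, on an axis from 0. TNF lies at 0.282 to 0.365 and IL1B at 0.162 to 0.187.

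BGN, which can also act as a ligand of Toll-like receptors when soluble, was near the limit of detection, with 450 counts over the 44 libraries and 0 counts in 3 of them. Unstimulated replicates 1 to 4 held 4.41, 7.29, 0.704 and 6.15 CPM, and the TGFB1 libraries held 26.5, 27.6, 11.8 and 11.7 CPM. All TGFB1 libraries lay above the unstimulated range, but the difference did not pass the test (4.13-fold, log2 fold change 2.05, standard error 0.77, edgeR adjusted p = 0.114). DESeq2 called it (log2 fold change 2.10, adjusted p = 0.0439). OSM gave 18.9, 5.93, 10.7 and 19.0 CPM (1.53, standard error 0.77, edgeR adjusted p = 0.334), with 1 library inside the unstimulated range. The mean in the other groups was 3.08 to 7.07 CPM.

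PODN, a collagen-binding SLRP, had 531 counts in all. Unstimulated replicates 1 to 4 held 13.7, 5.10, 0.704 and 3.42 CPM, a wide spread for the control. The level was highest with IL6, at 28.5, 15.0, 21.5 and 11.5 CPM, which overlapped the unstimulated range (3.20-fold, log2 fold change 1.68, standard error 0.68, edgeR adjusted p = 1). For this cytokine 0.0105% of genes, 1 in number, were called, 0 members were called by edgeR or DESeq2, and PODN was the member with an unadjusted p under 0.05 (0.0181). The lowest level was with TNF, at 1.41, 0, 0 and 2.68 CPM (4.88-fold lower, -2.29, standard error 0.85, edgeR adjusted p = 0.0726). The TNF comparison passed without unstimulated replicate 3 (adjusted p = 0.0378), without TNF replicate 4 (0.0391), by DESeq2 (0.0491) and under the GC correction (0.0387).

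FMOD, a collagen-binding relative of lumican, had 300 counts in all and 0 counts in 7 of the 44 libraries. Group means lay between 1.29 ± 1.77 CPM (SD, n = 4) with TNF and 6.81 ± 4.02 CPM with TGFB1, against 5.21 ± 4.31 in unstimulated cells, and all group ranges overlapped the unstimulated one. No FMOD comparison with unstimulated cells had an adjusted p under 0.293, and at this depth smaller differences were not detectable. IL22 gave 0 called members, 0 at an unadjusted p under 0.05 and 0 by DESeq2. Over all genes, 0% were called with IL22 by edgeR, 1037 had an unadjusted p under 0.05, and DESeq2 called 112.

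**Figure D5:**
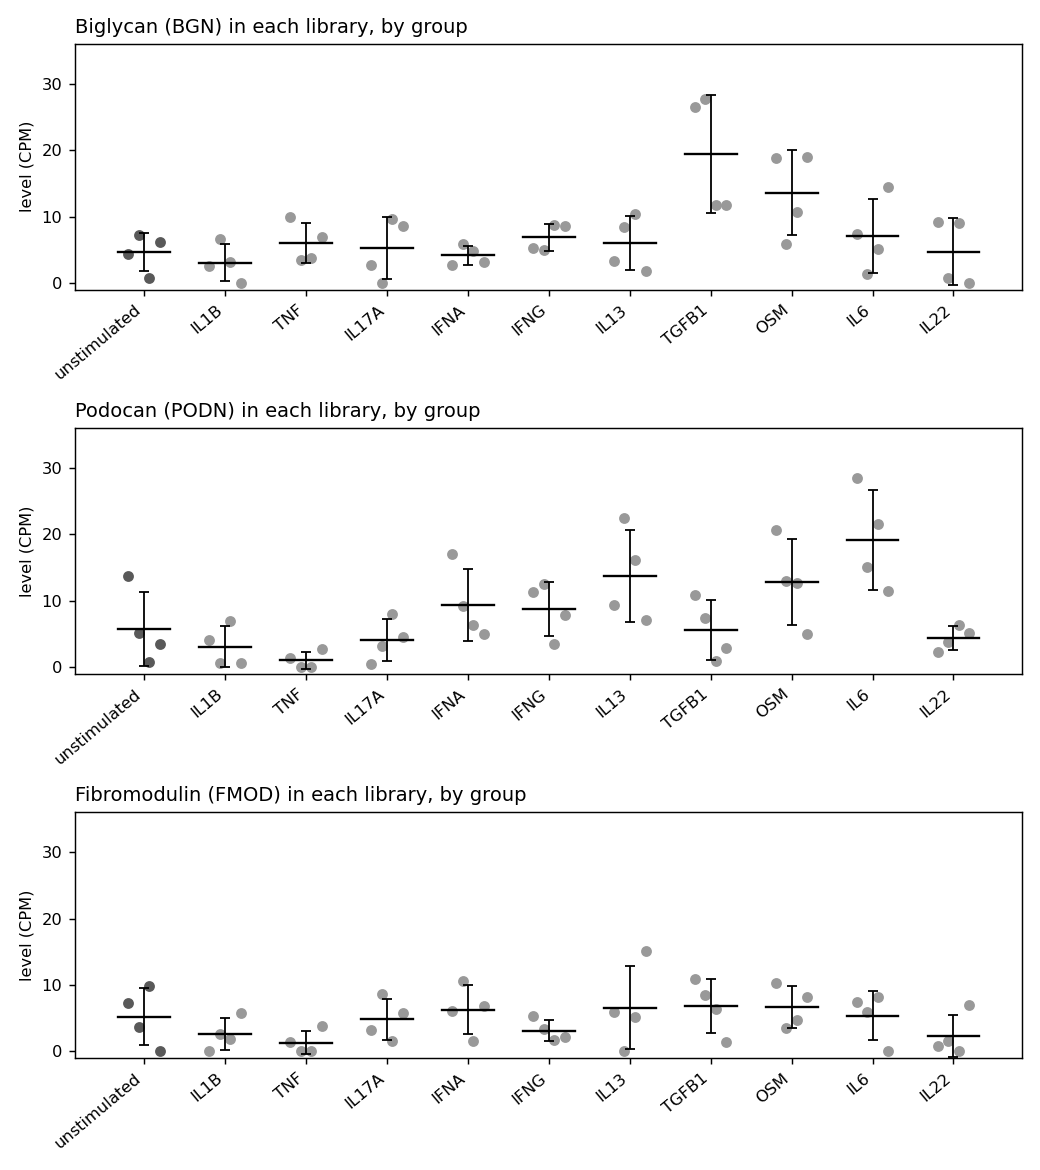
BGN (top), PODN (middle) and FMOD (bottom) level in CPM on a shared axis, 1 point per library, with the mean and SD of the 4 replicates of each group; no group had an edgeR adjusted p under 0.05 against unstimulated. The 4 TGFB1 libraries hold 11.7 to 27.6 CPM of BGN, and unstimulated libraries at most 7.29.

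OGN, OMD and PRELP did not pass the filter and were not tested. OGN, also called mimecan, which takes part in collagen fibril assembly, had 25 counts in all, spread over 11 of 44 libraries with at most 5 in a library. OMD, best known from mineralized tissue, had 49 counts in 14 libraries with at most 11, in IL17A replicate 1. PRELP had 33.6 estimated counts in 16 libraries with at most 7, in IFNA replicate 2. OGN had 0 counts in all 4 libraries of TNF, IFNG, TGFB1 and OSM, OMD in those of IFNG, TGFB1 and IL22, and PRELP in those of IL13. These 3 transcripts were at or near the floor of 3 counts, so no difference between groups could be detected.

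The genes beside the members in their clusters gave no calls. ECM2, the neighbour of ASPN and itself an SLRP relative, was at 6.58 ± 1.81 CPM (SD, n = 4) in unstimulated cells and 1.08 ± 1.36 with TNF, a log2 fold change of -2.53 (standard error 0.98, edgeR adjusted p = 0.0887), and passed in 0 of the 14 comparisons. CENPP passed in 0 of them too. KERA and EPYC, beside LUM and DCN, had at most 7 and 2 counts in a library, and OPTC had 0 counts in all 44. Of the 9 further SLRP family genes listed, ECM2 was the only one that passed the filter.

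Cytokines of related kinds were also compared directly in the same model, since a call with one cytokine and not with another does not show a difference. IFNA and IFNG differed for ASPN, which was 3.27-fold higher with IFNA (log2 difference 1.71, standard error 0.49, edgeR adjusted p = 0.0173). The ranges of 26.2 to 118 CPM and 3.56 to 38.2 CPM overlapped, and 9.39% of genes were called between these 2 cytokines. The call was lost without IFNA replicate 1 (adjusted p = 0.122), IFNA replicate 2 (0.0638), IFNG replicate 3 (0.074) or IFNG replicate 4 (0.0923), and with only the 8 libraries compared (0.12). LUM differed by 0.41 here (standard error 0.15, edgeR adjusted p = 0.0733), and passed without IFNG replicate 2 (0.00546) and by DESeq2 (0.0389).

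IL13 and TGFB1, both linked to matrix production, differed for 2 members. ASPN was 5.54-fold higher with IL13 (log2 difference 2.47, standard error 0.44, edgeR adjusted p = 7.48e-05), without overlap of the ranges of 327 to 697 and 65.3 to 99.8 CPM. DCN was 1.36-fold higher with IL13, at 16292 to 18074 CPM against 10570 to 14117 CPM (0.45, standard error 0.14, edgeR adjusted p = 0.0211). The share of all genes called between IL13 and TGFB1 was 12.4%. The DCN call was lost without IL13 replicate 3 (adjusted p = 0.0557), TGFB1 replicate 3 (0.0553) or TGFB1 replicate 4 (0.0722), with the GC correction (0.177), with only the 8 libraries compared (0.116) and without the filter on low counts (0.0626). BGN, at 1.78 to 10.4 CPM with IL13 and 11.7 to 27.6 CPM with TGFB1, differed by -1.65 without passing (standard error 0.76, edgeR adjusted p = 0.165), and LUM, at 0.37 (edgeR adjusted p = 0.092), passed without TGFB1 replicate 4 (0.0347).

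OSM and IL6, whose receptors share the gp130 subunit, differed for the same 2 genes, ASPN and DCN. ASPN was 4.57-fold lower with OSM than with IL6 (log2 difference -2.19, standard error 0.47, edgeR adjusted p = 0.00251), at 18.7 to 40.3 CPM against 66.4 to 171 CPM. DCN was 1.38-fold higher with OSM (0.47, standard error 0.14, edgeR adjusted p = 0.0487), with no overlap of the ranges, 18206 to 25899 CPM against 15394 to 18005 CPM. Between these groups 2.67% of genes were called. The DCN call was lost in 7 of the 8 fits that left out a library, with adjusted p of 0.194, 0.138 and 0.125 without OSM replicates 1, 2 and 3 and of 0.0816, 0.0552, 0.101 and 0.17 without IL6 replicates 1, 2, 3 and 4. It was also lost without the filter on low counts (0.0931). LUM passed between OSM and IL6 with the GC correction (log2 difference 0.59, adjusted p = 0.00198), against 0.34 (edgeR adjusted p = 0.307) without it.

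IL1B and TNF differed for LUM, which was 1.48-fold lower with IL1B (log2 difference -0.57, standard error 0.15, edgeR adjusted p = 0.039). The IL1B libraries held 2788 to 3453 CPM and the TNF libraries 3895 to 4875 CPM, without overlap, and 1.15% of genes were called between these 2 cytokines. The call was lost without IL1B replicates 1, 3 or 4 (adjusted p = 0.0816, 0.099 and 0.0923) or TNF replicates 1, 2 or 4 (0.0722, 0.0858 and 0.0611), and without the filter on low counts (0.0615). ASPN differed by 1.91 (standard error 0.60, edgeR adjusted p = 0.122) and passed without TNF replicate 1 (log2 difference 3.24, adjusted p = 0.0174) and without the filter (1.03e-06).

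Collagens, the main binding partners of SLRPs, were described from a list of 11 genes, all of which passed the filter. With TNF 8 fell and 0 rose, where 11.5% of all genes were called, with a median log2 fold change of -1.09 over the list and -0.02 over all genes tested. COL14A1 (a fibril-associated collagen) fell from 247 ± 40.5 to 87.5 ± 31.8 CPM (SD, n = 4; -1.51, edgeR adjusted p = 1.24e-06), COL3A1 by 1.33 on the log2 scale (adjusted p = 1.31e-06) and COL1A2 by 1.09 (0.000121). With IL1B, where 7.38% of genes were called, 5 fell, among them COL6A3 (-1.01, edgeR adjusted p = 9.23e-07) and COL3A1 (-1.01, 0.000148). COL11A1 had no count in the IL1B libraries, at least 3.70-fold below the unstimulated mean when 3 counts per library are taken as the floor. The unstimulated libraries ranged from 0.704 to 10.9 CPM of COL11A1. With IFNG 4 collagens fell (median -0.86, 10.6% of genes called), with IFNA 3 (-0.68, 9.85%), with TGFB1 3 (-0.24, 5.69%) and with IL17A 1 (-0.17, 1.52%), and 0 rose with any of these. With IL13, where 3.93% of genes were called, 2 rose, COL6A1 (1.56, edgeR adjusted p = 0.000171) and COL6A2 (1.34, 0.0209), both chains of the collagen type VI microfibril. OSM, IL6 and IL22 changed 0 of the 11, with medians of -0.41, -0.14 and -0.08. Between IL13 and TGFB1, where 12.4% of genes were called, 7 collagens were higher with IL13 and 0 were lower, among them COL14A1 (325 ± 51.2 against 88.7 ± 23.9 CPM, 1.88, edgeR adjusted p = 1.09e-08).

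Enzymes that build the glycosaminoglycan chains of SLRPs moved singly. Of 22 genes for chondroitin and dermatan sulfate synthesis, 15 were tested and at most 2 were called with a cytokine. Of all genes tested, 11.5% were called with TNF, 10.6% with IFNG, 9.85% with IFNA, 7.38% with IL1B, 3.96% with OSM and 3.93% with IL13. Counts this small cannot set the list apart from those shares. CHSY1, which extends chondroitin chains, rose with OSM from 169 ± 28.6 to 296 ± 47.6 CPM (SD, n = 4; 0.80, edgeR adjusted p = 0.0105) and fell with TNF (-0.77, 0.00783). CSGALNACT1, which starts such chains, rose with IL1B from 3.99 ± 1.48 to 23.4 ± 9.26 CPM (2.53, edgeR adjusted p = 0.0146), and DSEL, a dermatan sulfate epimerase, rose with TNF (1.10, 0.000154). UST fell with OSM (-1.66, edgeR adjusted p = 0.0274) and DSE fell with IFNA (-0.79, 0.0315). XYLT1 was at no more than 1 count with IFNG, at least 1.77-fold below the unstimulated mean. The unstimulated libraries themselves ranged from 0 to 7.04 CPM of XYLT1. Of 8 genes for keratan sulfate synthesis 3 were tested, and B4GALT1, a galactosyltransferase, rose with IL1B (852 ± 20.4 to 1623 ± 221 CPM, 0.93, edgeR adjusted p = 0.00066) and TNF (0.94, 0.00043), while B4GALT4 fell with IFNG (-1.11, 0.0259) and IL13 (-1.19, 0.0339). The lists' medians were between -0.10 and 0.27 for the chondroitin and dermatan sulfate genes and between -0.41 and 0.84 for the 3 keratan sulfate genes, against -0.05 to 0.00 over all genes tested.

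Other proteoglycan core proteins changed in both directions, with 8 of 18 tested. VCAN (versican, a large matrix proteoglycan) rose with TGFB1 from 528 ± 74.0 to 822 ± 17.3 CPM (SD, n = 4; 0.64, edgeR adjusted p = 0.00187) and fell with IL13 (-0.87, 2.82e-05) and TNF (-0.76, 7.63e-05). In the direct comparison VCAN was lower with IL13 (289 ± 37.8 CPM) than with TGFB1 (edgeR adjusted p = 2.78e-11), whereas ASPN was higher. SDC2, a membrane syndecan, fell with IL1B, TNF, IL17A, IFNG and OSM (log2 fold changes of -1.29 to -0.83), and SRGN, an intracellular proteoglycan, rose with IL1B from 6.05 ± 0.681 to 24.4 ± 7.09 CPM (2.00, edgeR adjusted p = 0.0409). GPC6, a glypican, fell with TNF (-1.35, edgeR adjusted p = 0.000186), IFNA (-1.25, 0.000405) and IFNG (-0.85, 0.0217). Median log2 fold changes of the list lay between -0.75 with IL17A and 0.24 with OSM. Of its 8 tested genes, 2 were called lower with IL17A and 1 was called lower with OSM. Of all genes tested, 1.52% and 3.96% were called with these cytokines.

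Proteases that process or cleave SLRPs were described from 10 genes, of which 7 were tested. MMP3 (stromelysin 1) rose with IL1B from 636 ± 163 to 11976 ± 1625 CPM (SD, n = 4; 4.24, edgeR adjusted p = 4.04e-12), with TNF (4.34, 2.44e-12) and with TGFB1 (2.15, 1.26e-05), and fell with IL13 to 59.6 ± 30.9 CPM (-3.41, 3.56e-09). ADAMTS5, an aggrecanase, rose with IL1B (1.05, edgeR adjusted p = 0.000908) and IL17A (1.09, 0.00367) and fell with IL13 (-1.84, 5.16e-07), OSM (-1.84, 3.4e-07) and IFNG (-0.85, 0.00919). ADAMTS4 rose with TNF (1.76, edgeR adjusted p = 0.043), IFNA (2.05, 0.0156) and IFNG (1.81, 0.0385), and MMP2 rose with TGFB1 (0.56, 0.014). The list's median log2 fold change was 1.76 with TNF, 1.05 with IL1B and -0.12 with IL13. Over all genes tested it was -0.02, -0.01 and -0.05. With TNF and with IL1B 2 of the 7 genes were called higher, and with IL13 2 were called lower. Of all genes tested, 11.5%, 7.38% and 3.93% were called.

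Receptors and ligands known to be bound by decorin or biglycan were 12 genes, of which 7 were tested. MET, a receptor tyrosine kinase, was at 33.2 ± 17.1 CPM (SD, n = 4) in unstimulated cells and fell with IL1B (9.18 ± 4.55 CPM, -1.82, edgeR adjusted p = 0.0228), IL17A (-2.02, 0.0402), IFNG (-1.67, 0.0342) and OSM (-1.96, 0.0261). CD44, a hyaluronan receptor, fell with IL1B, IL17A and TGFB1 (log2 fold changes of -0.72, -0.64 and -0.70). TGFB3 had no count in the unstimulated libraries and rose to 13.7 ± 7.50 CPM with IFNA (edgeR adjusted p = 0.000208) and, at least 6.53-fold, to 12.8 ± 3.67 CPM with IL1B (0.000384). It was also called with TNF (at least 2.83-fold), IL17A (2.64-fold) and OSM (2.16-fold). These bounds use group means, and the IL17A libraries ranged from 0.780 to 12.5 CPM of TGFB3. TGFB2 was at no more than 3 counts with TNF and at 12.5 ± 7.65 CPM in unstimulated cells, at least 5.83-fold lower (edgeR adjusted p = 0.00198), and CCN4 had no count with TGFB1, at least 1.34-fold lower (0.0392). In unstimulated libraries CCN4 was at 1.96 to 5.10 CPM, against a floor of 2.61 CPM with TGFB1. Over the 7 genes the median log2 fold change lay between -1.08 with TNF and 0.50 with IFNG. With TNF 1 of them was called higher and 1 lower, and with IFNG 1 was called lower. Of all genes tested, 11.5% and 10.6% were called with these cytokines.

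Transcripts with the most similar pattern to each tested member were found by Pearson's r over the 11 group means of log2 CPM among 8934 genes. They are a description, and the points share the libraries. For ASPN they were SLC25A36 (r = 0.942), RASSF2 (0.941) and COL1A1 (0.929). For DCN they were AK1 (0.896), MAP9 (0.890) and GUCY1B1 (0.880), and for LUM CTPS2 (0.885), NEK9 (0.857) and ANAPC4 (0.823). BGN was most like PLEKHJ1 (0.887), SMIM15-AS1 (0.872) and TMEM134 (0.856), FMOD was most like TRIM39 (0.893), GLI2 (0.887) and SCFD2 (0.879), and PODN was most like HACD4 (0.935), CTBS (0.886) and NXN (0.885). Over the 44 libraries, RASSF2 ranked first for ASPN (r = 0.907) and COL1A1 eighth (0.794), whereas for the other 5 members 0 of the 3 genes remained among the first 3. Among the members themselves, r over the group means ranged from -0.26 for LUM with ASPN to 0.66 for FMOD with PODN, with 0.63 for DCN with LUM.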

How the data were processed

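RNA from 44 libraries of Ccd-18Co cells was sequenced by the authors, who checked the reads with FastQC 0.11.9 and MultiQC 1.14 and quantified them with kallisto 0.48.0 (submitters' processing notes, which also name hg38). The deposited table holds estimated counts per gene symbol, not normalized, of which 5.77% of values are not whole. Which transcriptome release was used, how transcripts were summed to genes and whether strand was used are not given in the sources used here. Estimated counts were rounded, genes were kept with filterByExpr over the 11 groups, and edgeR 4.0.16 (R 4.3.3, limma 3.58.1) fitted all 44 libraries with TMM normalization, glmQLFit and glmQLFTest. Benjamini-Hochberg adjustment ran over the 9513 genes tested in a comparison, tests were two-sided, with calls at an adjusted p under 0.05. CPM values are counts per 1000000 counts of TMM-scaled library size, per kilobase of the GENCODE 44 canonical transcript where stated. Totals of 742173 to 2213424 counts limited what could be detected for the low members.

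All 9 members were described, and from each list at most the 3 genes with the smallest adjusted p in a comparison were named. The lists were other SLRP genes, chondroitin and dermatan sulfate enzymes, keratan sulfate enzymes, collagens, other proteoglycans, proteases, and receptors and ligands. The members and lists were chosen with earlier results of these data known. Alternatives were DESeq2 1.42.0 (test, and size factors alone), a filter of 10 counts in 4 libraries, no filter, an absolute log2 fold change above 1.5 in addition, the 8 libraries compared, each library left out, and the replicate number as a block; a correction for GC content was added later. Over all genes tested, same-numbered cytokine and unstimulated libraries did not deviate together throughout (6 of 40 pair correlations over 0.1). Numbers were therefore not treated as pairs. This check takes all genes together and does not describe ASPN alone. The code was tested on simulated data.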

Additional observations from a re-analysis of the deposited data

Results flagged for a closer look

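LUM in IL22 replicate 4 stood apart from the other IL22 libraries, at 4030 CPM against 3395 to 3450 CPM. Of 66 groups of 4 libraries checked, 1 had such a gap, and chance gives about 1 in 20, or 3.3 of 66.

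Direct tests found 6 differences between cytokines (edgeR's quasi-likelihood test). LUM differed by -0.57 on the log2 scale between IL1B and TNF (adjusted p = 0.039). ASPN differed by 1.71 between IFNA and IFNG (adjusted p = 0.0173), by 2.47 between IL13 and TGFB1 (7.48e-05) and by -2.19 between OSM and IL6 (0.00251). DCN differed by 0.45 between IL13 and TGFB1 (adjusted p = 0.0211) and by 0.47 between OSM and IL6 (0.0487).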

How the results depend on the processing

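Of 84 comparisons of a tested member, 13 were called, and over 208 alternative fits of these the call was kept in 175 and lost in 33. The 71 others gave 29 calls in 1109 alternative fits, and 24 of them changed sign under at least 1 alternative. Neither set of fits includes the threshold of an absolute log2 fold change above 1.5, which was applied only to counts of calls. The study set this threshold for its signatures. Each DCN and LUM call lay below it, and each ASPN call lay above it. The ASPN calls with IL1B, TNF, IFNG, IL13 and OSM, between IL13 and TGFB1 and between OSM and IL6 held in all alternatives. The number of members called of 6 moved as follows. With DESeq2 it was 2 for TNF, IFNG, TGFB1 and IFNA against IFNG. With an absolute log2 fold change above 1.5 it was 0 for TGFB1 and IL1B against TNF, and 1 for OSM, IL13 against TGFB1 and OSM against IL6. Without a filter it was 1 for IL17A, IFNA, IL13 against TGFB1 and OSM against IL6. With only the 8 libraries compared it was 1 for IL17A, OSM and IL13 against TGFB1, and 0 for TGFB1 and IFNA against IFNG. With the GC correction, chosen after seeing the data, it was 3 for TNF, 0 for TGFB1 and 1 for IL13 against TGFB1. In none of these comparisons did the count of calls over all genes move by more than 1.5-fold under this correction. LUM was then called beside DCN and ASPN with OSM and between OSM and IL6, with or without the replicate block added. With the replicate block the number was 1 for IL17A and IFNA and 2 for IFNG and IL1B against TNF. With the replicate block and GC correction together it was 2 for TNF and IL1B against TNF. It was 1 there for IL17A and IL13 against TGFB1 and 0 for TGFB1. The replicate block brought ASPN with IL17A (adjusted p = 0.00448), ASPN with IFNA (0.0254), DCN with IFNG (0.043) and ASPN between IL1B and TNF (0.0138) past the threshold, and 0 of the other counts of members moved with it. What a shared replicate number stands for is not stated, and the deviations of same-numbered libraries had correlations of -0.0865 to 0.281. Leaving out 1 library gave 0 to 1 members for IL17A, TGFB1 and IL1B against TNF, 1 to 2 for TNF, IFNG, IL13 against TGFB1 and OSM against IL6, and 0 to 2 for IFNA against IFNG. Over all genes, a log2 fold change above 1.5 left 264 calls for IL1B (702 without it), 399 of 1090 for TNF, 43 of 145 for IL17A, 379 of 937 for IFNA, 336 of 1013 for IFNG, 140 of 374 for IL13, 162 of 541 for TGFB1, 124 of 377 for OSM, 35 of 109 for IL1B against TNF, 261 of 893 for IFNA against IFNG, 459 of 1184 for IL13 against TGFB1 and 97 of 254 for OSM against IL6. DESeq2 called 239 genes for IL17A, 112 for IL22 and 176 for IL1B against TNF. Without a filter there were 220 for IL17A, 13 for IL6 (1 with it), 29 for IL22 and 227 for IL1B against TNF. The replicate block gave 223 for IL17A and 12 for IL22, and 253 and 19 with the GC correction. With only the 8 libraries compared there were 451 for IFNG, 233 for TGFB1, 0 for IL6, 515 for IFNA against IFNG and 393 for OSM against IL6. Leaving out 1 library moved the count to 62 (without unstimulated replicate 2) and 225 (unstimulated replicate 3) for IL17A, to 313 (unstimulated replicate 2) and 846 (TGFB1 replicate 4) for TGFB1, to 220 (OSM replicate 1) for OSM, to 71 (unstimulated replicate 3) and 54 (IL22 replicate 4) for IL22, to 232 (unstimulated replicate 4) for IL13, to 670 (IFNG replicate 4) for IFNG, to 53 (IL1B replicate 2) for IL1B against TNF and to 166 (OSM replicate 1) for OSM against IL6. The causes of these moves were not tested. Depth limited BGN, PODN and FMOD, at no more than 50 counts in a library, and OGN, OMD and PRELP, at no more than 11.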

Other observations

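ASPN differed between replicates in a repeated way, noticed after its values were seen. Replicates 1 and 2 both lay above replicates 3 and 4 in 8 of 11 groups, and in 0 groups did both lie below. Both lay above in 6 groups for DCN, 5 for PODN, 4 for LUM, 2 for FMOD and 1 for BGN. They lay below in 2 groups for DCN, 2 for PODN, 3 for LUM, 0 for FMOD and 2 for BGN. Of the 9513 genes tested, 61 (0.641%) were split one way in at least 8 groups. What the replicate numbers stand for is not stated in the labels, and the part of the numbers in the cytokine comparisons was examined only by the fit with the replicate block.

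The 3 genes of most similar pattern depended on the measure. With Spearman's rho over the 11 group means, 2 of the 3 remained for LUM and FMOD, 1 for BGN and PODN, and 0 for DCN and ASPN. Ordering the groups by mean log2 CPM in place of mean CPM kept 11 of 11 places for DCN and ASPN, 9 for LUM and PODN, 5 for BGN and 4 for FMOD.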
